A study of Mus musculus with 6 samples.

Results

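The 40 genes described here are cytokines, chemokines, Toll-like receptors with their adaptors, and inflammasome components that have been linked to morphine tolerance through TLR4, IL-1 and NLRP3 signalling. They are a list of gene symbols that no measured value enters, though it was drawn up with earlier results of these data known. All 40 were found among the 52513 gene identifiers of the table. Expression was measured by RNA sequencing of spinal cord tissue at the lumbar levels L4 and L5 from wild-type mice. Every mouse received intrathecal injections, that is into the fluid around the cord, for 7 days. The saline group (3 libraries) received vehicle and the morphine group (3 libraries) received 10 µg morphine, an opioid analgesic, in 10 µL. The sources used here give no strain, sex or age. Each sample description carries a run of numbers, and the sources do not say whether these mark animals pooled into a library, so p-values measure the spread between these libraries, which may be partly technical.

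Toll-like receptors recognise microbial molecules and products of damaged cells. Most of them signal through the adaptor MyD88 and the kinases IRAK4 and IRAK1 to the ubiquitin ligase TRAF6, which leads to release of NF-kB from its inhibitor IkB-alpha and to transcription of cytokine genes. NLRP3 is a cytosolic sensor that assembles with the adaptor ASC (gene Pycard) and caspase-1 (Casp1) into the inflammasome, in which caspase-1 cleaves the precursors of IL-1beta and IL-18. In the spinal cord these receptors and cytokines are known mainly from microglia and astrocytes, and several chemokines carry signals between neurons and these glia.

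The levels below are FPKM (sequenced fragments scaled by transcript length and by the depth of the library), so that levels of different genes can be set side by side. Depth, estimated from the steps between low FPKM values, was about 21500000 to 26200000 fragments in the saline libraries and 17900000 to 19900000 in the morphine libraries. Summed FPKM was 662470 to 670280 in the saline libraries and 720234 to 741145 in the morphine libraries. Motor neuron markers were uneven within both groups, with a summed level over 7 genes of 134 to 148 FPKM in saline 1, saline 2 and morphine 2 and of 15.9 to 44.8 FPKM in the other 3 libraries. In whole tissue, fewer cells of a type and less RNA per cell cannot be told apart.

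The set ran from genes at or near 0 up to Cx3cl1, with a mean of 62.1 FPKM. Of the 40 genes, 9 had a mean of at least 10 FPKM over the 6 libraries, 12 lay between 1 and 10, 15 between 0.1 and 1, and 4 below 0.1. The most abundant were Cx3cl1, Il18, Il33, Il34, Nfkbia, Il1rap, Irak1, Il6st and Cxcl12. The 4 lowest were Nlrp1a, Tnf, Il1b and Il10, and Il6 was just above them. A gene was tested where at least 3 of the 6 libraries reached 1 FPKM, which 22 of the 40 did and 18 did not. The filter was passed by 18 of the 22 in all 6 libraries.

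**Figure D1:**
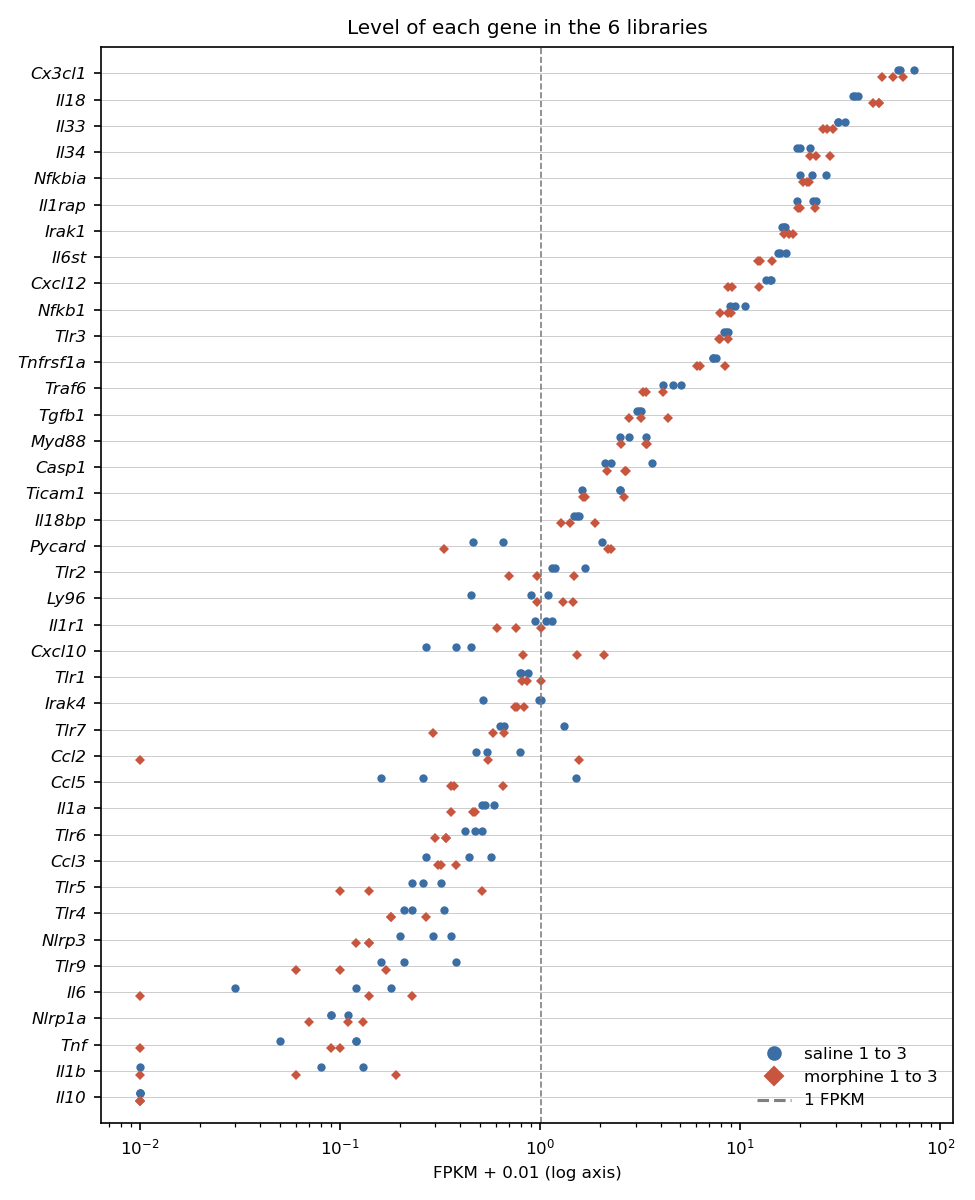
FPKM + 0.01 (log axis) of each of the 40 genes, ordered by mean level, with saline libraries as circles, morphine libraries as diamonds and a dashed line at 1 FPKM. Cx3cl1 and Il18 lie highest, Il10 is at 0 in every library (plotted at 0.01), and most Toll-like receptors lie below 1 FPKM.

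Il18 was the 1 gene of the 22 tested that passed the threshold, and it rose. Among all 14614 tested genes, 0.944% passed as higher and 0.561% as lower (limma on log2(FPKM + 1), Benjamini-Hochberg adjusted p under 0.05), and none of the 22 passed as lower. Before adjustment, 2 genes had p under 0.05 and a higher level (Il18 and Il34) and 4 a lower one (Cxcl12, Il6st, Il33 and Traf6), against 11.2% and 11.1% of all tested genes. The groups did not overlap in 4 of the 22, with higher morphine libraries in Il18 and lower ones in Cxcl12, Il6st and Il33, against 28.7% of all tested genes in either direction. The set as a whole was not tested. The fold change was positive in 7 and negative in 15, with a median log2 fold change of -0.09, beside -0.02 over all tested genes.

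**Figure D2:**
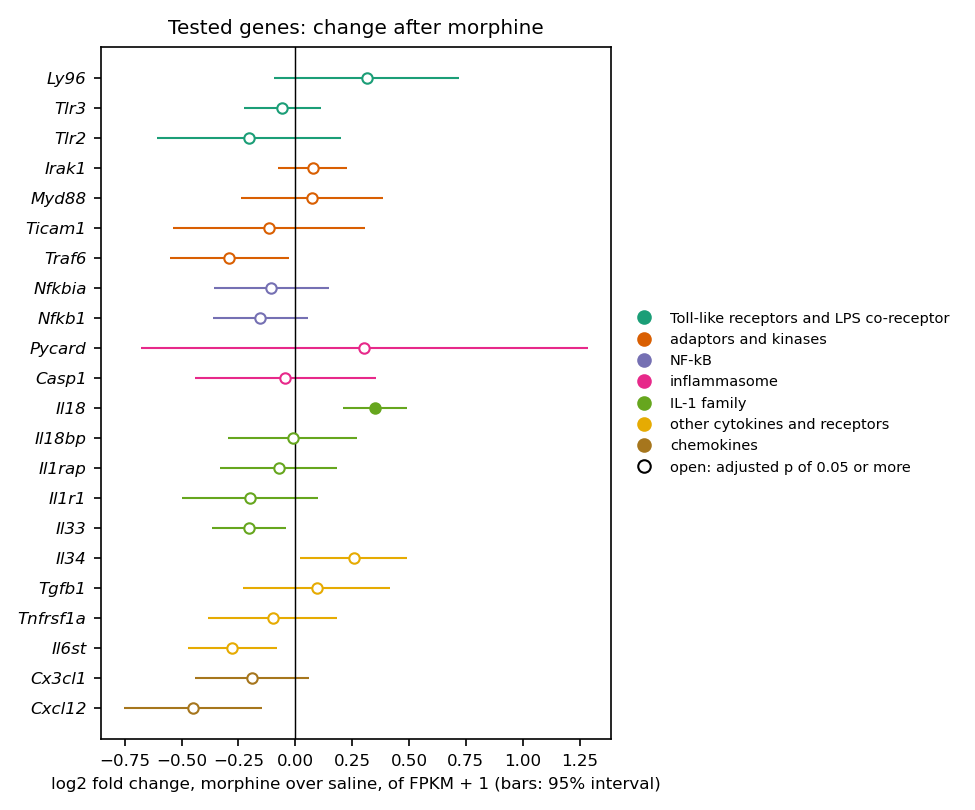
Log2 fold change, morphine against saline, of the 22 tested genes on the log2(FPKM + 1) scale, with 95% confidence intervals from limma, coloured by role and filled where the adjusted p was under 0.05. The interval of Il18 lies farthest above 0, and those of Cxcl12, Il6st, Il33 and Traf6 lie below 0 without passing the adjusted threshold.

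Apart from Tlr3, the Toll-like receptors were scarce. Tlr3, the receptor for double-stranded RNA, was the most abundant Toll-like receptor at 8.48 ± 0.177 FPKM with saline and 8.12 ± 0.440 with morphine (SD, n = 3 in each group). Tlr2, which recognises bacterial lipoproteins, had 1.33 ± 0.289 and 1.04 ± 0.397 FPKM. Its partners in recognition are Tlr1 and Tlr6, and Tlr1 had 0.810 ± 0.0436 and 0.883 ± 0.104 FPKM. Tlr6 had 0.50, 0.41 and 0.46 FPKM in the saline libraries and 0.33, 0.33 and 0.29 in the morphine libraries. The groups did not overlap, and in the fit without the filter the unadjusted limma p was 0.0317 and the adjusted p 0.284. The values stand for about 34 to 37 fragments in each saline library and 19 to 23 in each morphine library.

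Tlr4, the lipopolysaccharide receptor, lies on chromosome 4 at 66827584 to 66930284 (plus strand, GRCm38). Its level was 0.22, 0.32 and 0.20 FPKM in saline 1 to 3 and 0.17, 0.26 and 0.17 in morphine 1 to 3. The groups overlapped, with about 17 to 32 fragments in a saline library and 12 to 18 in a morphine library, and the adjusted limma p without the filter was 0.688. Ly96 encodes MD-2, the co-receptor that holds lipopolysaccharide for TLR4. It had 0.807 ± 0.333 FPKM with saline and 1.23 ± 0.255 with morphine, a log2 difference of 0.31 (SE 0.17, limma adjusted p = 0.331), and 4 to 13 fragments a library. The differences in Tlr4 and Ly96 were within the spread between libraries.

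The remaining receptors were also below 1 FPKM on average. Tlr5, the flagellin receptor, had 0.260 ± 0.0458 FPKM with saline and 0.240 ± 0.226 with morphine, where 1 library (morphine 2) was at 0.50. The endosomal receptor for single-stranded RNA, Tlr7, had 0.857 ± 0.384 and 0.50 ± 0.195 FPKM. Tlr9, the endosomal DNA receptor, had 0.240 ± 0.115 and 0.10 ± 0.0557 FPKM. In all 3 genes the groups overlapped. None of the 3 receptor genes that were tested (Tlr2, Tlr3 and Ly96) passed the threshold or had an unadjusted p under 0.05.

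Adaptors and kinases were more abundant than most receptors. Irak1, a kinase of the MyD88 complex, stood at 16.5 ± 0.301 FPKM with saline and 17.4 ± 0.870 with morphine. Its upstream partner Irak4 stood at 0.830 ± 0.277 and 0.773 ± 0.0416 FPKM, and its exons share 395 bases with Twf1 on the opposite strand, a gene at 27.9 to 37.8 FPKM. The sources used here do not say whether counting used strand, so reads of the pair may be exchanged. Myd88 had 2.89 ± 0.445 and 3.10 ± 0.503 FPKM and shares 290 exonic bases with Acaa1a on the opposite strand. Ticam1, which encodes the adaptor TRIF of TLR3 and TLR4, had 2.50, 2.51 and 1.61 FPKM in saline 1 to 3 and 1.66, 2.63 and 1.62 in morphine 1 to 3. The 3 libraries with the higher Ticam1 values, saline 1, saline 2 and morphine 2, are those with the higher motor neuron marker levels. The log2 difference of Ticam1 was -0.11 in the reported fit and 0.03 with the motor neuron marker covariate. The part of those markers in the Ticam1 values was not tested further.

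Traf6, the ubiquitin ligase on which TLR and IL-1 receptor signals converge, had 5.07, 4.59 and 4.08 FPKM with saline and 3.24, 4.08 and 3.38 with morphine. Morphine 2 equalled the lowest saline library, and the log2 difference of -0.29 (SE 0.11) did not pass (limma unadjusted p = 0.0339, adjusted p = 0.187). Nfkb1, the p105 and p50 subunit of NF-kB, had 9.63 ± 0.885 FPKM with saline and 8.55 ± 0.555 with morphine. Nfkbia encodes IkB-alpha, the inhibitor that NF-kB itself induces. It had 22.7, 26.9 and 19.9 FPKM with saline and 21.5, 22.0 and 20.5 with morphine, and the morphine libraries lay within the saline range (log2 difference -0.11, SE 0.11, limma adjusted p = 0.599).

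Inflammasome genes averaged below 3 FPKM in both groups. Nlrp3, on chromosome 11 at 59541568 to 59566956 (plus strand), had 0.35, 0.28 and 0.19 FPKM with saline and 0.11, 0.13 and 0.13 with morphine. Every morphine library was below every saline library. These values stand for about 29, 28 and 16 fragments in saline and 8, 9 and 9 in morphine. The 95% Poisson intervals of the counts, which cover counting error only, run from 9.15 to 41.7 over the saline libraries and from 3.45 to 17.1 over the morphine libraries. These counts are not scaled for depth, which was lower in the morphine libraries. In the fit without the filter the log2 difference was -0.18. The unadjusted limma p was 0.0167 and the adjusted p 0.219, so Nlrp3 did not pass. The sensor Nlrp1a had 0.0867 ± 0.0115 FPKM with saline and 0.0933 ± 0.0306 with morphine, on about 4 to 8 fragments a library.

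Casp1, the protease of the complex, had 2.65 ± 0.832 FPKM with saline and 2.50 ± 0.309 with morphine (limma adjusted p = 0.901). Pycard, which encodes the adaptor ASC, varied more between libraries of 1 group than between groups. It had 2.04, 0.45 and 0.64 FPKM in saline 1 to 3 and 2.24, 0.32 and 2.18 in morphine 1 to 3. Its annotated transcripts are 3800 and 493 bases long.

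The IL-1 family held the gene that rose. Il18, a cytokine that caspase-1 matures and that induces interferon-gamma in lymphocytes, lies on chromosome 9 at 50554827 to 50581840 (plus strand). It had 38.8, 36.5 and 37.5 FPKM in saline 1 to 3 and 49.4, 49.5 and 45.9 in morphine 1 to 3. All morphine libraries were above all saline libraries, and the group means were 37.6 ± 1.15 and 48.3 ± 2.08 FPKM (SD, n = 3), a ratio of 1.28. The log2 difference was 0.35 (SE 0.06, limma adjusted p = 0.0465). The call is close to the threshold: the adjusted p over 17 alternatives ran from 0.0299 to 0.161, the call held in 6 of them and the sign in all 17. It was lost without saline 1 (adjusted p = 0.146), saline 2 (0.161), saline 3 (0.110), morphine 1 (0.154) or morphine 3 (0.136), and held without morphine 2 (0.0451). The exonic sequence of Il18 is short, 1031 bases, and short genes as a whole had positive median fold changes, as the length classes show. With that length trend removed, the log2 difference of Il18 was 0.25 and the adjusted p 0.0939.

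Il33, an alarmin kept in the nuclei of glia and released on injury, had 30.8, 30.7 and 33.5 FPKM with saline and 27.1, 29.0 and 26.0 with morphine. The groups did not overlap, and the log2 difference of -0.20 (SE 0.07) had a limma adjusted p of 0.146. Il1a had 0.58, 0.52 and 0.50 FPKM with saline and 0.45, 0.35 and 0.46 with morphine, again without overlap (limma adjusted p = 0.491 without the filter). Il1b, the cytokine most often tied to morphine tolerance, had 0, 0.07 and 0.12 FPKM with saline and 0.18, 0.05 and 0 with morphine. These stand for 0 to 4 fragments a library, both groups held a library at 0, and no difference was detectable at this depth.

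The receptor chains of the family differed in level. Il1rap, the accessory chain shared by the receptors of IL-1 and IL-33, had 22.1 ± 2.49 FPKM with saline and 20.9 ± 2.32 with morphine. Il1r1, the chain that binds IL-1, had 1.04 ± 0.101 and 0.783 ± 0.202 FPKM. Il18bp, a secreted protein that neutralises IL-18, had 1.51 ± 0.0503 and 1.51 ± 0.314 FPKM and shares 80 exonic bases with Numa1 on the opposite strand. None of these 3 had an unadjusted p under 0.05. Il1rap had 23.15, 23.80 and 23.58 FPKM in saline 1, saline 2 and morphine 2, the libraries with the higher motor neuron marker levels. In the others it had 19.20 to 19.78 FPKM. Its log2 difference was -0.07 in the reported fit and positive with the motor neuron marker covariate and with the length trend removed. The part of those markers in the Il1rap values was not tested further. The 2 chains of the IL-18 receptor, Il18r1 and Il18rap, had at most 0.02 and 0.06 FPKM in any library, and Il1rl1, the IL-33 receptor, at most 0.02. The chains specific to IL-18 and IL-33 were thus near 0 in both groups, while the shared chain Il1rap was among the abundant genes of the set.

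**Figure D3:**
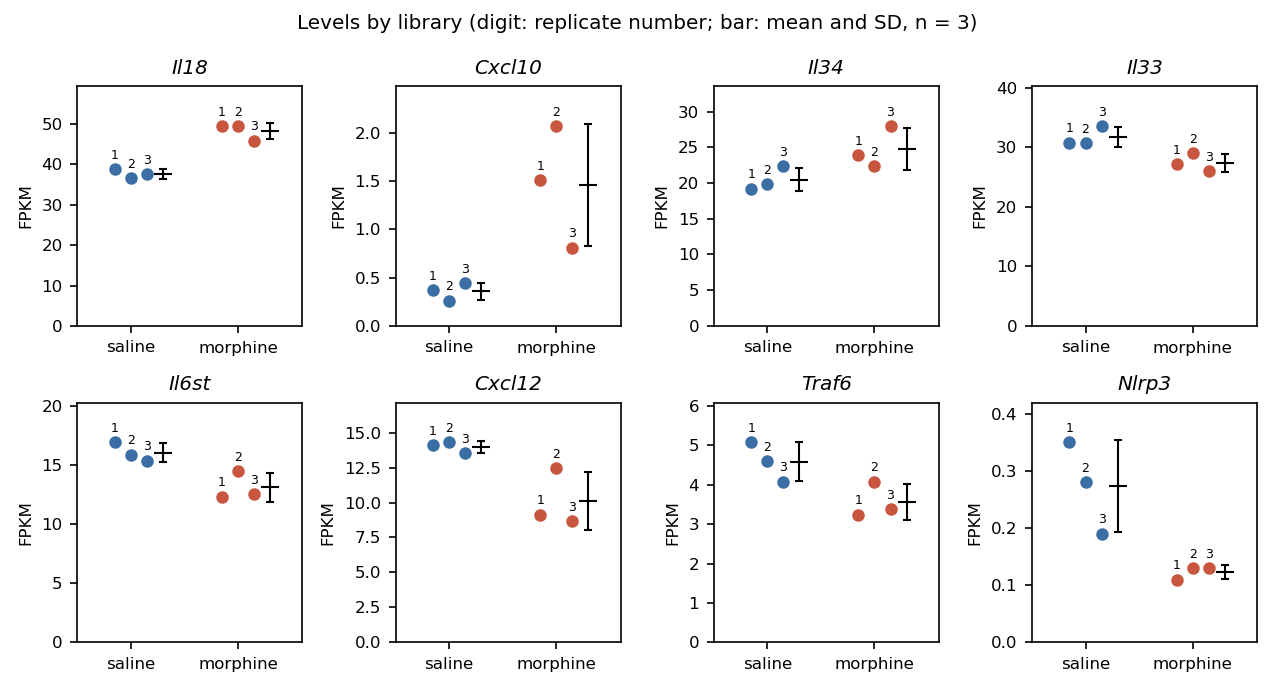
FPKM in each library (points, with the replicate number) and group mean with SD (bars, n = 3) of 8 genes, each panel with its own axis from 0. In Il18 and Cxcl10 all morphine points lie above the saline points, in Il33, Il6st, Cxcl12 and Nlrp3 all lie below, and in Il34 and Traf6 a value is shared between the groups.

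Among other cytokines, the receptor chain Il6st and the ligand Il34 were abundant. Il6st encodes gp130, the signalling chain shared by the receptors of IL-6 and related cytokines. It had 16.9, 15.9 and 15.3 FPKM with saline and 12.3, 14.5 and 12.5 with morphine, without overlap (log2 difference -0.28, SE 0.08, limma adjusted p = 0.112). Downstream of gp130, the kinase gene Jak1 had 39.5, 37.1 and 36.5 FPKM with saline and 25.7, 33.7 and 29.8 with morphine (adjusted p = 0.109). The transcription factor gene Stat3 had 22.2, 20.0 and 18.4 FPKM with saline and 14.9, 17.6 and 14.3 with morphine (adjusted p = 0.103). In Il6st, Jak1 and Stat3 the groups did not overlap, morphine 2 was the morphine library nearest to saline, and none passed the threshold. Jak1 was named after its values were seen, and Stat3 had the smallest p of its list. Of the 17 tested genes in that list of further interleukin, gp130 and JAK-STAT genes, none passed, 9 had positive and 8 negative fold changes, 2 were lower and none higher at an unadjusted p under 0.05, and the median log2 fold change was 0.03. Jak2, another kinase that binds gp130, had overlapping groups (8.88 to 9.73 FPKM, adjusted p = 0.581).

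Il34, a ligand of the CSF1 receptor on microglia, had 19.2, 19.9 and 22.3 FPKM with saline and 23.9, 22.3 and 28.0 with morphine. Saline 3 and morphine 2 were equal, and the log2 difference of 0.26 (SE 0.10) had a limma adjusted p of 0.192. Its receptor gene Csf1r had 12.99 to 16.1 FPKM with saline and 12.7 to 15.2 with morphine. Il6 itself had 0.11, 0.17 and 0.02 FPKM with saline and 0, 0.13 and 0.22 with morphine, which is 1 to 9 fragments in saline and 0 to 9 in morphine. Tnf had 0.11, 0.11 and 0.04 FPKM with saline and 0.08, 0 and 0.09 with morphine, at most 4 fragments a library. For both cytokines the groups overlapped. Il10, an anti-inflammatory cytokine, was at 0 in all 6 libraries, and 3 fragments, a one-sided limit for a count of 0 that differs from the two-sided intervals given for other genes, would correspond to 0.105 to 0.154 FPKM.

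The TNF receptor gene Tnfrsf1a had 7.40 ± 0.125 FPKM with saline and 6.91 ± 1.32 with morphine, where morphine 2 at 8.42 FPKM was above all saline libraries and the other 2 at 6.26 and 6.04 were below them. Tgfb1, an anti-inflammatory and matrix-inducing cytokine, had 3.11 ± 0.0709 and 3.44 ± 0.811 FPKM. Here too morphine 2 was the highest library, at 4.34 FPKM. Neither gene had an unadjusted p under 0.05.

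The chemokines held the largest ratio of the set. Cxcl10, an interferon- and NF-kB-inducible chemokine that attracts T cells, lies on chromosome 5 at 92346638 to 92348889 (minus strand). It had 0.37, 0.26 and 0.44 FPKM with saline and 1.51, 2.07 and 0.81 with morphine, and every morphine library was above every saline library. The group means were 0.357 ± 0.0907 and 1.46 ± 0.631 FPKM, a ratio of 4.10. These stand for about 16, 14 and 19 fragments in saline and 61, 75 and 30 in morphine. The 95% Poisson intervals reach up to 29.7 in saline and start at 20.2 in morphine 3, 46.7 in morphine 1 and 59.0 in morphine 2. They are intervals of counts not scaled for depth, which was lower in the morphine libraries. Cxcl10 was under the filter, since only morphine 1 and 2 reached 1 FPKM. In the fit without the filter the log2 difference was 0.83. The unadjusted limma p was 0.00556 and the adjusted p 0.148, so it did not pass. Its exons share 133 bases with Art3 on the opposite strand, which had 3.49 to 5.13 FPKM with overlapping groups.

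Of the 18 genes under the filter, 17 had a mean over 0.05 FPKM. Among these the morphine libraries lay wholly above the saline libraries in 1 (Cxcl10), against 7.08% of the 7769 genes under the filter at such levels, and wholly below in 3 (Nlrp3, Tlr6 and Il1a), against 5.44%. Genes around Cxcl10 were lower still. The related ligands Cxcl9 and Cxcl11 had at most 0.25 FPKM, and their shared receptor Cxcr3 at most 0.03. Of 21 interferon-stimulated genes, 17 were tested, none passed and none had an unadjusted p under 0.05. The median log2 fold change of these 17 was -0.005, and Gbp2, with the smallest p, had an adjusted p of 0.281. Lymphocyte markers were near 0, with a sum over 7 genes of 0.3 to 0.5 FPKM with saline and 0.08 to 0.71 with morphine, and Cd8a at 0 in every library. Markers of neutrophils and monocytes summed to 6.87 to 10.7 FPKM over 9 genes in saline and 4.18 to 6.18 in morphine, with 3 of the 9 tested, none called and 2 lower at an unadjusted p under 0.05. Red cell markers were lower too: all 5 were tested, and 4 were lower without overlap and at an unadjusted p under 0.05. Over all tested genes, 11.1% were lower at that p and 28.7% did not overlap in either direction. Hbb-bt passed as lower (limma adjusted p = 0.0453), but not in the fit without the filter (adjusted p = 0.0992). The 5 red cell markers summed to 757 to 1077 FPKM with saline and 421 to 595 with morphine. None was at 0 in all libraries, and near-identical globin copies can share reads. The part of these blood cell markers in the Cxcl10 values was not tested.

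The stretches upstream of Cxcl10, Nfkbia and Il18 are printed because the first 2 are textbook NF-kB-inducible genes with unlike values here, and Il18 is the gene that rose. Each is 250 bases directly before the RefSeq start (GRCm38.p6), read 5′ to 3′ on the strand of the gene. Capitals mark matches to the NF-kB consensus or to the paired interferon-response half-site GAAANNGAAA, searched on both strands. The coordinates are chr5:92348890-92349139 (minus) for Cxcl10, chr12:55492648-55492897 (minus) for Nfkbia and chr9:50554450-50554699 (plus) for Il18.
Cxcl10: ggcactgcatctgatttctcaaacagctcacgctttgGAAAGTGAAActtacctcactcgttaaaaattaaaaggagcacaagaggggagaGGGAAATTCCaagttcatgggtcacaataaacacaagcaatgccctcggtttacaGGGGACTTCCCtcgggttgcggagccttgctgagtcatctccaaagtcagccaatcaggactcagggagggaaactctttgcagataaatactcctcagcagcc
Nfkbia: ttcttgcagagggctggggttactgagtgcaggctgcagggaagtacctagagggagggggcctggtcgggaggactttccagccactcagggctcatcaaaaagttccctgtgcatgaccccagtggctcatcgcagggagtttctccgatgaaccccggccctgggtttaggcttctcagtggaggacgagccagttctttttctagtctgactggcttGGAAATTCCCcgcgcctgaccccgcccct
Il18: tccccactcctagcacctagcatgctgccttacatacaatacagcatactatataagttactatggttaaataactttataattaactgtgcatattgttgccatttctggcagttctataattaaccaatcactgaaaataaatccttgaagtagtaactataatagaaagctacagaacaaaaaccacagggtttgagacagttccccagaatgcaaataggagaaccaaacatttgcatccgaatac
Counted from the start, Cxcl10 had the half-site pair at -213 to -204, an NF-kB match at -159 to -150 and overlapping NF-kB matches from -104 to -94. Nfkbia had 1 NF-kB match at -29 to -20, and in the Il18 window neither motif was found. The Il18 window ends at 50554699, before the GENCODE start at 50554827, and the bases between them were not searched. For Cxcl10 and Nfkbia the window adjoins the GENCODE start. Of the 40 genes, 32 had an entry in the promoter table, with 38 starts. The NF-kB consensus occurred at 10 of these starts, in 9 genes (Il1r1, Tlr2, Il6, Cxcl10, Tgfb1, Tlr3, Nlrp3, Nfkbia and Irak1), against 7.25% of 32851 mouse promoters of the same length. Of these 9, Cxcl10 was higher without overlap, Nlrp3 lower without overlap, and the other 7 had overlapping groups. Over all tested genes, 28.7% did not overlap in either direction. Among genes under the filter with a mean over 0.05 FPKM, which include Cxcl10 and Nlrp3, 7.08% were higher and 5.44% lower without overlap. The half-site pair occurred in 3 genes (Cxcl10, Tlr6 and Myd88), against 2.98% of promoters. A match is a description of the letters and not a measured binding site.

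Cxcl12, the CXCR4 ligand made by vascular and meningeal cells among others, lies on chromosome 6 at 117168535 to 117181367 (plus strand). It had 14.1, 14.3 and 13.5 FPKM with saline and 9.14, 12.5 and 8.65 with morphine. All morphine libraries were below all saline libraries, and the log2 difference was -0.45 (SE 0.13, limma adjusted p = 0.103). Without morphine 2, the morphine library nearest to saline, the difference was -0.60 and the limma adjusted p 0.0284. Leaving out the nearest library widens the difference by construction. Over all tested genes 805 passed in that fit, beside 220 in the reported fit. No other leave-one-out fit called Cxcl12. Single markers of vascular cells were also lower before adjustment, where 11.1% of all tested genes were lower at an unadjusted limma p under 0.05. Of 8 endothelial markers, all tested, none was called and 4 were lower at an unadjusted p under 0.05, and they summed to 153 to 182 FPKM with saline and 152 to 178 with morphine. That sum is mostly Slc2a1 and Ly6c1. The mean log2 level of the 8, which weights them equally, was 3.51 to 3.57 with saline and 3.18, 3.48 and 3.25 in morphine 1 to 3, without overlap, and 7 of the 8 had negative fold changes (median -0.31). Of 4 pericyte markers, 3 were tested and 2 were lower at that p, with sums of 39.7 to 41.3 and 31.1 to 35.9 FPKM. The 5 markers of meningeal fibroblasts summed to 29.6 to 44.7 FPKM with saline and 21.3, 42.7 and 10.8 FPKM with morphine 1 to 3. No marker of these 3 lists was at 0 in all libraries, and their part in the Cxcl12 values was not tested. Its receptors Cxcr4 and Ackr3 had 1.97 to 2.99 and 2.32 to 4.05 FPKM, with overlapping groups.

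Cx3cl1, the membrane-bound chemokine of neurons whose receptor marks microglia, was the most abundant gene of the set. It had 63.1, 61.7 and 73.8 FPKM with saline and 58.1, 50.9 and 65.0 with morphine, with overlap (log2 difference -0.19, SE 0.11, limma adjusted p = 0.341). Its receptor Cx3cr1 had 11.1 to 11.9 FPKM with saline and 11.3 to 12.3 with morphine. The inflammatory chemokines that recruit monocytes and T cells were low. Ccl2 had 0.593 ± 0.164 FPKM with saline and 0, 1.55 and 0.54 FPKM with morphine 1 to 3. Ccl3 had 0.417 ± 0.150 and 0.327 ± 0.0379 FPKM, on about 3 to 8 fragments a library. Ccl5 had 1.5, 0.25 and 0.15 FPKM with saline and 0.64, 0.36 and 0.35 with morphine, so that 1 saline library held the highest value. These Ccl5 values stand for about 1 to 14 fragments a library. In these 3 genes the groups overlapped.

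Among the other genes of the same pathways, 199 in 9 lists, there was also 1 call. Of the 116 tested, 1 passed as higher and none as lower, against 0.944% and 0.561% of all tested genes. Before adjustment, 6 of the 116 had p under 0.05 and a higher level and 11 a lower one, against 11.2% and 11.1% of all tested genes, so neither count exceeded the background share. The median log2 fold change of the 116 was -0.03. The gene that rose was Ccl27a, a chemokine known from epithelia, with 84.1, 82.0 and 88.7 FPKM with saline and 128, 106 and 116 with morphine (log2 difference 0.45, SE 0.08, limma adjusted p = 0.0465). Like that of Il18, this call held in 6 of 17 alternatives (adjusted p from 0.0283 to 0.161) and the sign in all 17. It was lost without saline 1 (adjusted p = 0.159), saline 2 (0.161), saline 3 (0.105), morphine 1 (0.152) or morphine 3 (0.141). The call was also lost with the length trend removed, no filter, quantile normalization, the replicate block, no intensity trend or a pseudocount of 0.1. Traf3, a regulator of TLR and interferon signalling, had the smallest p in the list of TLR adaptors and other sensors. It was just outside the threshold, with 12.7, 12.6 and 13.7 FPKM with saline and 9.41, 10.1 and 9.65 with morphine (log2 difference -0.38, limma adjusted p = 0.0506). In both genes the groups did not overlap.

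Each of the other lists is given by its gene of smallest p, and none of these passed. In the inflammasome and pyroptosis list it was P2rx4, an ATP-gated channel of microglia, with 8.18, 9.10 and 7.63 FPKM with saline and 9.36, 10.1 and 11.3 with morphine (adjusted p = 0.159). In the TNF and TGF-beta list it was Smad2, a transducer of TGF-beta, with 7.97 to 8.70 FPKM with saline and 5.17 to 6.85 with morphine (adjusted p = 0.0913). Among further NF-kB regulators it was the inhibitor Tnip1, with 20.9 to 23.8 and 17.7 to 20.3 FPKM (adjusted p = 0.182). Among NF-kB target and effector genes it was the transcription factor Cebpb, with 3.16 to 3.99 and 4.51 to 4.71 FPKM (adjusted p = 0.112), whose exons share 312 bases with the abundant Tmem189 on the opposite strand. Among further IL-1 family genes only Sigirr, an inhibitory receptor, was tested (adjusted p = 0.573). The groups did not overlap in P2rx4, Smad2, Tnip1 and Cebpb, and overlapped in Sigirr. A gene picked for its small p will often lack overlap. Among the 116 tested pathway genes the morphine libraries lay wholly above saline in 7 and wholly below in 14. The share over all tested genes was 28.7% in either direction.

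Markers of the cells known to carry these pathways were present. All 12 microglial markers were tested, none was called and 1, Aif1, was higher at an unadjusted p under 0.05. Of the 12, 2 had positive and 10 negative fold changes, with a median log2 fold change of -0.09. Over all tested genes, 11.2% were higher and 11.1% lower at that p, and 28.7% did not overlap in either direction. The microglial markers summed to 264 to 283 FPKM with saline and 248 to 287 with morphine. Of 8 astrocyte markers, 3 had positive and 5 negative fold changes. Aqp4 (log2 difference -0.33, limma adjusted p = 0.134) and Slc1a2 (-0.16, adjusted p = 0.136) were lower at an unadjusted p under 0.05 and without overlap, and Gja1 was lower without overlap. The 1 astrocyte marker called was Sox9, which rose from 5.17 to 5.41 FPKM in saline to 7.50 to 8.47 in morphine (limma adjusted p = 0.0463). Sox9 was not called in the fit without the filter (limma adjusted p = 0.0992). The 8 markers summed to 892 to 1144 and 923 to 1218 FPKM. Their part in the values of the 40 genes was not tested.

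Fold changes in this dataset moved with gene length. Across 14588 tested genes with an annotated length, Spearman's rho between exonic length and log2 fold change was -0.310, a description across genes, which are not independent replicates. The median log2 fold change was 0.17 for genes of up to 1000 bases, 0.11 for 1001 to 2000 bases, 0.02 for 2001 to 4000, -0.06 for 4001 to 8000 and -0.09 for longer genes. The short members Il18 (1031 bases), Ly96 (1021) and Il34 (1959) had positive fold changes, and the long members Cxcl12 (8176), Il6st (11099) and Traf6 (7883) negative ones. Not all genes followed the sign of their class. Of the 5 tested genes of 1001 to 2000 bases, 3 had positive fold changes and 2 (Casp1 and Nfkbia) negative ones. Of 8 genes of 2001 to 4000 bases, 2 were positive (Myd88 and Pycard) and 6 negative. Of 5 genes of 4001 to 8000 bases, 2 were positive (Irak1 and Tgfb1) and 3 negative, and all 4 longer genes were negative. The part of length in these values was not tested beyond the fit with the trend removed, in which none of the 22 passed in either direction.

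**Figure D4:**
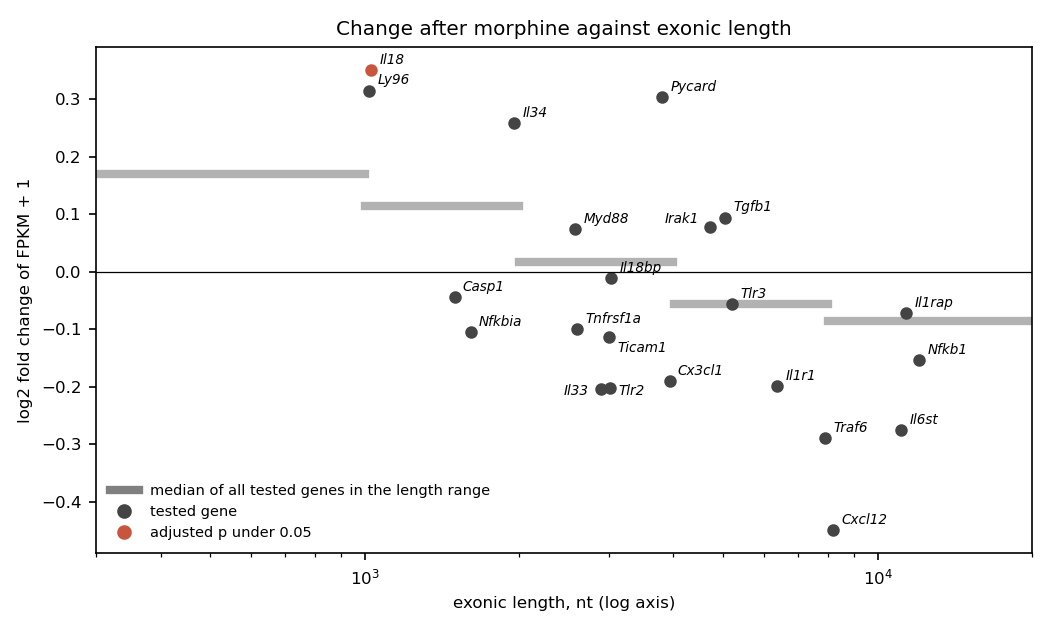
Log2 fold change of the 22 tested genes against exonic length in nucleotides (log axis), over the median of all tested genes in 5 length classes (grey bars); the gene with an adjusted p under 0.05 is in red. Il18, Ly96 and Il34 lie on the short side above 0, and Cxcl12 and Il6st on the long side below 0.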

How the data were processed

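RNA sequencing libraries of mouse L4 to L5 spinal cord, 3 saline and 3 morphine, were made from PureLink and Trizol RNA with the KAPA stranded kit, per the labels' protocols. The submitters' processing notes name the mouse build mm10 and the tools RSEM, STAR, Trimmomatic and bcl2fastq 2.19.0. Other versions, the annotation and whether strand entered the counts: not given in the sources used here. Gene-level FPKM were computed and deposited by the authors. It gives no counts, and no raw reads were used.

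Columns were assigned to samples by name. Values were tested as log2(FPKM + 1) with limma 3.58.1 (trend; R 4.3.3) over the 14614 genes that reached 1 FPKM in 3 or more of the 6 libraries, morphine against saline, two-sided, with Benjamini-Hochberg adjustment over all tested genes and a threshold of 0.05. Fold changes are on the log2(FPKM + 1) scale, which understates the change of low genes. For genes under the filter, values come from an otherwise equal fit over the 28021 genes above 0 in any library. An exact permutation test of 3 against 3 cannot go below p = 0.1, so none is given for single genes. Where FPKM steps allowed, depth was estimated as the depth and mean fragment length (218 to 226 bases) at which most low values of genes with 1 transcript became whole fragments. Within 0.05 of a fragment or the rounding of the table, 83.7% to 85.5% of values were whole, against 13.3% to 18.1% for evenly spread values. Fragment numbers use the longest transcript and are approximate. Coordinates, lengths and overlaps are from GENCODE M21 (GRCm38, the assembly of mm10), and promoters from RefSeq (GRCm38.p6). Python 3.11.15 with pandas 2.3.3, NumPy 2.4.6, SciPy 1.17.1 and matplotlib 3.10.9 was used.

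All 40 genes are named. The value in every library is given where the unadjusted p was under 0.05 or the groups did not overlap, and always for Tlr4, Nlrp3, Il1b, Tnf and Il6. Of other pathway lists, up to 4 genes that passed, or the 1 with the smallest p, are named. Jak1, the receptors of described ligands, Cxcl9, Cxcl11 and further library values were added after their values were seen. The 40 genes and all lists were chosen with earlier results of these data known. Alternatives were other pseudocounts and filters, TPM, quantile and median scaling, a replicate block, no intensity trend, a motor neuron marker covariate, removal of the length trend and leaving out each library.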

Additional observations from a re-analysis of the deposited data

How the results depend on the processing

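Il18 was the 1 gene called higher at a pseudocount of 0.1 or 0.5, with a mean of at least 5 FPKM as the filter, with median centring and with the motor neuron marker covariate. No gene of the set was called higher (0) with no filter, after rescaling to TPM, with quantile normalization, with the replicate block, with no intensity trend or with the length trend removed. Leaving out 1 library at a time gave 0 to 1 called higher and 0 to 1 called lower. The call lower was Cxcl12 without morphine 2. After rescaling to TPM 3 were called lower (Il33, Il6st and Cxcl12; adjusted p 0.0455, 0.0444 and 0.0487), and with the motor neuron covariate 1 (Cx3cl1, adjusted p = 0.0373). The median log2 fold change of the tested genes was -0.09 in the reported fit, -0.21 in TPM, -0.0347 with the motor neuron covariate and -0.115 to -0.0354 when 1 library was left out, with the highest value without morphine 3. TPM moved the median of all tested genes from -0.02 to -0.13, since the summed FPKM differed between the groups. Of the 22 tested genes, 14 kept their sign in all alternatives in which they were tested. Over all genes, 220 were called in the reported fit, 954 in TPM, 805 without morphine 2, 898 with the motor neuron covariate, 662 with median centring, 102 with quantile normalization, 36 with no intensity trend, 30 with the length trend removed, 24 with the replicate block and 8 with no filter. The other 5 leave-one-out fits called 1 to 8. In TPM 101 of the calls were higher and 853 lower, in the reported fit 138 and 82, and with quantile normalization 47 and 55. Deviations from the group mean correlated at -0.129, 0.161 and 0.295 between same-numbered libraries and at -0.341 to 0.238 between the others. With so few libraries these values cannot decide whether the numbers pair them. With the replicate block the log2 fold change of Il18 was 0.35 and its adjusted p 0.058. Depth limits Il1b, Tnf, Il6 and Il10, which rest on 0 to 9 fragments a library. It also limits, among others, Ccl3 (3 to 8), Nlrp1a (4 to 8), Ccl5 (1 to 14) and Ly96 (4 to 13).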
